A study of Mus musculus with 16 samples.

Results

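The response of autophagy-deficient gut epithelium to IL-22 was measured by RNA sequencing of small intestinal organoids from Atg16l1 ΔIEC mice, with and without the cytokine. The members were the 8 cultures, of 16 in the series, whose labels gave the genotype as Atg16l1dIEC: 4 treated with IL-22 at 10 ng/ml for 24 h and 4 left untreated. In these mice the Villin promoter drives Cre in the intestinal epithelium, which deletes a loxP-flanked Atg16l1, and the study kept them on a C57BL/6 background and used them at 8 to 12 wk. Crypts were grown into organoids in medium with EGF, Noggin and R-spondin 1, and were stimulated 3 to 6 d after passage. The labels number 2 ΔIEC organoid lines with 2 cultures per line and treatment, so n = 4 counts cultures of 2 lines. Replicates 1 and 2 of each group are called the first line, and replicates 3 and 4 the second. The other 8 cultures, from Atg16l1 fl/fl organoids without Cre under the same treatments, entered the fit and served as the comparison genotype.

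Lymphocytes of barrier tissues release IL-22, a relative of IL-10 that acts on cells outside the immune system. Its receptor, a pair of IL22RA1 and IL10RB, sits on epithelial cells and signals through JAK1, TYK2 and STAT3, and it is best known in the gut for inducing secreted antimicrobial proteins, mucins and surface fucose. ATG16L1 is the part of the autophagy conjugation complex that directs LC3 to the growing autophagosome membrane. Secretory cells of the intestine, Paneth cells above all, rely on this pathway to handle stress of the endoplasmic reticulum.

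The deposited values were whole-number read counts per gene, made by the authors with HTSeq on GRCm38. Between 2268697 and 3976507 reads per ΔIEC culture lay on genes, and 16363 to 17843 genes had at least 1 count. Levels are given as CPM, the count scaled to the library total with edgeR's TMM factors, and compare a gene between cultures but not genes with each other. Fold changes are on the log2 scale ± the SE of the fit, and means of CPM ± SD. Atg16l1 (chr1:87755870-87792428, ENSMUSG00000026289.15) was counted at 2.59, 2.71, 1.21 and 4.15 CPM in the untreated and 0.810, 5.96, 0.302 and 0.289 CPM in the treated ΔIEC cultures, against 40.2 ± 7.24 CPM (SD, n = 4) in untreated fl/fl cultures. The highest of these values, 21 counts, was in treated replicate 2, and the IL-22 effect on the gene was not past the threshold (log2 fold change -0.28 ± 0.50, adjusted p = 0.707). Both rest on that culture: without it the log2 fold change was -2.46 and without the first line -3.02, and both passed. Treated replicate 1 stood apart in Gm42418, a gene over the ribosomal RNA repeat, at 10726 CPM against 1232 to 1846 CPM in the other ΔIEC cultures, and in Lars2 at 4544 against 2148 to 2251 CPM. Treated replicates 1 and 2 also differed more than any other pair of the same line and treatment. Their chi-square per gene was 7.35, a value that includes these genes, against 1.35 to 3.42 in the other pairs. On the third principal component of the ΔIEC cultures (7.61% of the variance) they lay at opposite ends, at 18.89 and -25.53. Summed markers of immune cells (7 genes, Cd3e and Cd79a at 0 in all 8 cultures) were at 8.68 to 10.6 CPM untreated and 8.21 to 11.3 CPM treated. Those of stromal and endothelial cells (7 genes, Dcn and Cdh5 at 0) stayed under 3.68 CPM in every culture, while 5 of 6 general epithelial markers rose and their sum was 5479 to 6961 CPM untreated and 6609 to 9269.9 CPM treated. In bulk cultures, fewer cells of a type and less RNA per cell cannot be told apart.

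IL-22 changed the level of 3198 of 12559 tested genes in ΔIEC organoids, 25.5% of those tested. Of these, 1727 genes rose (13.8%) and 1471 fell (11.7%), by edgeR's quasi-likelihood test with the organoid line as a block and a Benjamini-Hochberg adjusted p under 0.01. Most changes were small: the median log2 fold change was 0.57 among genes that rose and -0.65 among those that fell, and -0.01 over all tested genes. A change of at least 1 on the log2 scale was fitted for 390 genes that rose and 401 that fell, and a change of at least 3 for 38 and 24. The 4 treated cultures all lay above the 4 untreated ones in 14.1% of tested genes and all below them in 13.2%. Among genes past the threshold, the groups did not overlap in 1386 of those that rose and 1231 of those that fell. Of the gene counts, 3.89% to 4.05% fell on the 10 top genes in untreated and 6.98% to 9.12% in treated cultures. Leaving out treated replicate 1 gave 1696 genes that rose and 1457 that fell, and leaving out treated replicate 2 gave 1721 and 1322. Without the second line, 882 rose and 886 fell, and without the line as a block, 1234 and 961.

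**Figure D1:**
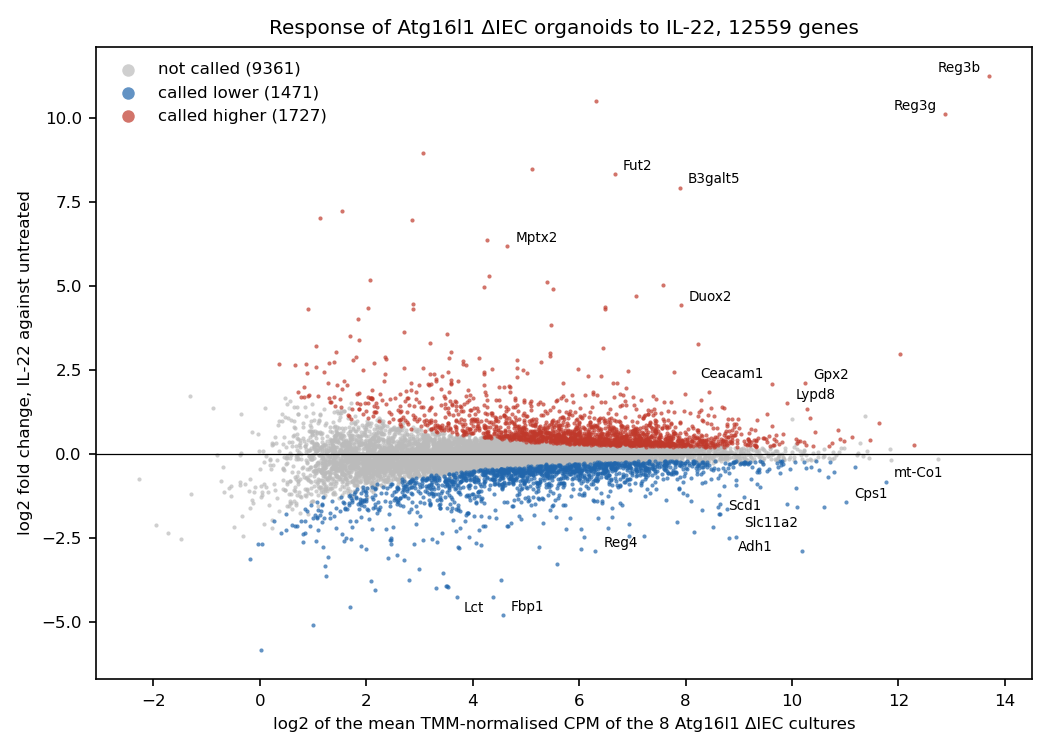
Log2 fold change to IL-22 in Atg16l1 ΔIEC organoids (vertical) against the log2 of the mean CPM of the 8 cultures (horizontal), 1 point per tested gene, red for the 1727 genes that rose past the threshold and blue for the 1471 that fell. Reg3b at 11.25 and Reg3g at 10.11 lie highest among the labeled genes, and Fbp1 at -4.81 and Lct at -4.28 lie lowest.

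Secreted antimicrobial and acute-phase genes were mostly higher with IL-22. Of 16 tested members of that list, 13 rose and 1 fell, with a median log2 fold change of 4.16 (3.97 with genes at the counting floor set to their bound) against -0.01 over all tested genes. Reg3b, which encodes a secreted lectin that kills bacteria, was at 10.6, 12.3, 8.44 and 13.3 CPM in the 4 untreated and 31959, 29485, 21162 and 24691 CPM in the 4 treated cultures. Its log2 fold change was 11.25 ± 0.11 (adjusted p = 1.19e-34), the largest fitted for any gene. Its neighbor Reg3g, a lectin active against gram-positive bacteria, went from 11.1, 12.3, 20.9 and 12.5 to 18222, 16805, 11747 and 13647 CPM, a log2 fold change of 10.11 ± 0.14 (adjusted p = 1.41e-30). Both genes were low in every untreated culture and high in every treated one, without overlap. These genes belong to a cluster of lectin genes on chromosome 6 of GRCm38, with Reg3b at chr6:78370657-78373466 on the plus strand and Reg3g at chr6:78466269-78468872 on the minus strand. Between them lie Reg3a (chr6:78380709-78383827) and Reg1 (chr6:78422711-78428667), which rose by 3.84 ± 0.20 and 5.03 ± 0.28 on the log2 scale. HTSeq drops reads that align to several places, so levels of such near-identical paralogs are uncertain.

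Lcn2, which encodes the siderophore-binding protein lipocalin 2, had 0, 2, 0 and 0 counts in the untreated and 127, 241, 269 and 264 counts in the treated cultures. With the untreated group at or under 3 counts in every culture, the change was at least 6.15 on the log2 scale. Lrg1, an acute-phase glycoprotein gene outside the list, had 1, 0, 0 and 0 counts untreated and 278, 729, 462 and 621 counts treated, a rise of at least 7.36. Retnlb, the goblet cell product RELMβ, rose by at least 4.10 and Lbp, the lipopolysaccharide-binding protein gene, by at least 2.80 on the same scale. All 4 were near 0 in each untreated culture and counted in each treated one. Mptx2, a pentraxin made by Paneth cells, went from 0.943, 0.246, 0.804 and 0.831 to 69.7, 52.8, 38.4 and 36.8 CPM, a log2 fold change of 6.17 ± 0.27 (adjusted p = 1.44e-17). Complement C3 rose by 4.95 ± 0.24, Saa3, an acute-phase serum amyloid gene, by 4.32 ± 0.39 and Pla2g2a, a secreted bactericidal phospholipase, by 3.14 ± 0.13 on the log2 scale. Lypd8, which encodes a protein that binds flagella, went from 448 to 530.4 CPM untreated to 1276 to 1628 CPM treated. The gene that fell was Pigr, the receptor that carries IgA across the epithelium, at 2002 to 2173 CPM untreated and 1341 to 1530.1 CPM treated (log2 fold change -0.55 ± 0.06, adjusted p = 2.07e-08). Wfdc2, a secreted protease inhibitor, and Itln1, an intelectin of Paneth and goblet cells, did not pass the test, with log2 fold changes of 0.81 ± 0.35 and 0.10 ± 0.07.

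**Figure D2:**
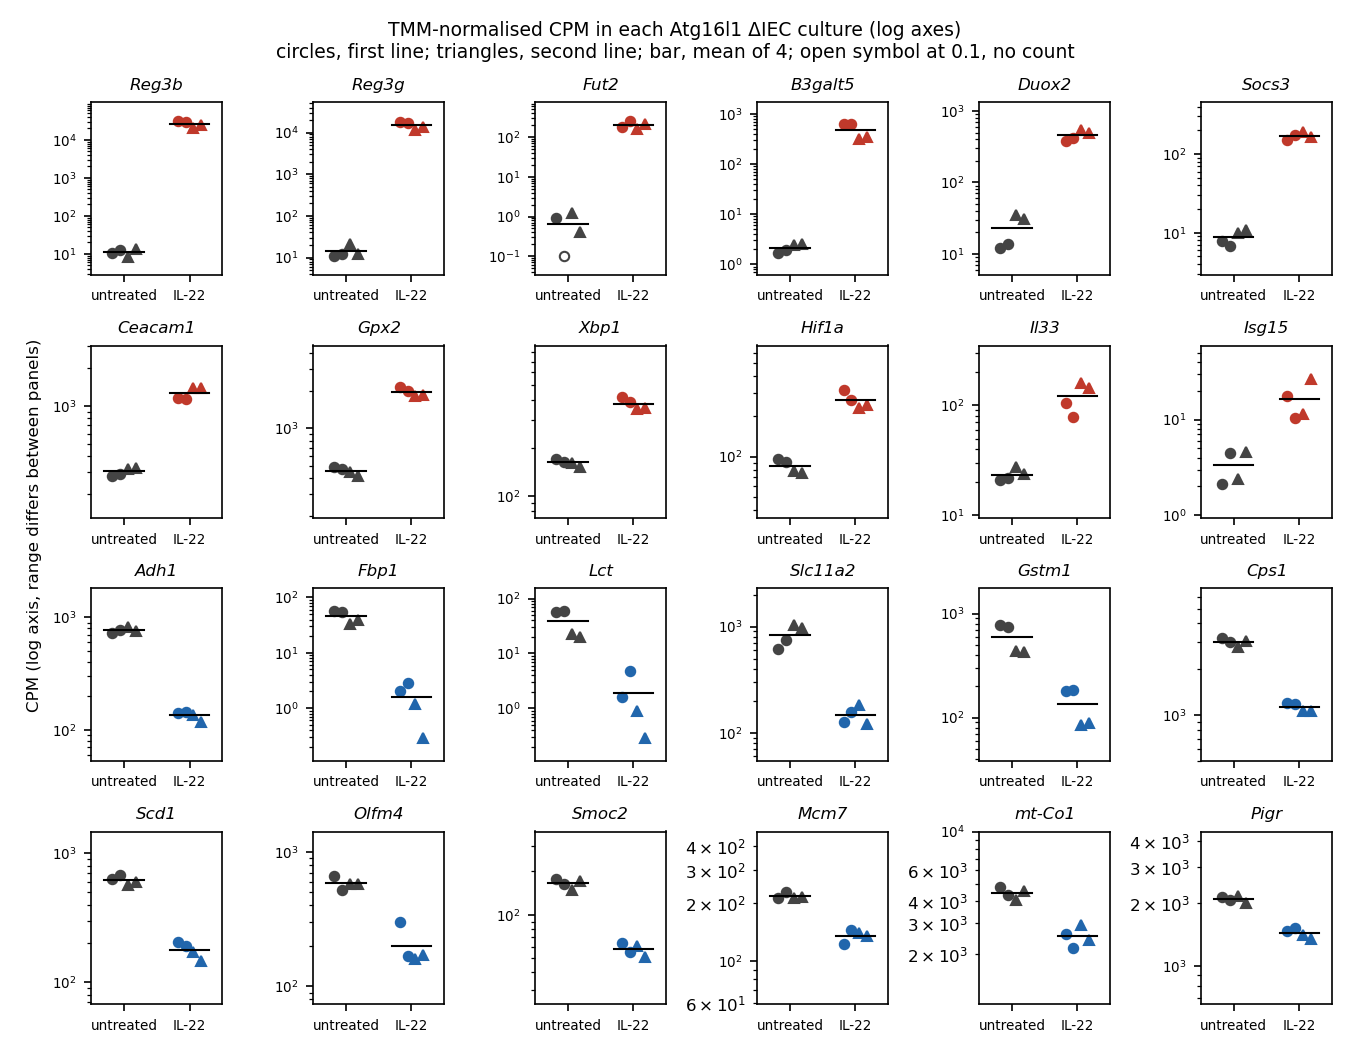
CPM of 24 named genes in each Atg16l1 ΔIEC culture on log axes whose range differs between panels, untreated at the left and IL-22–treated at the right of each panel; circles are the first line, triangles the second, and bars the mean of 4 cultures. The open symbol marks a culture with no count. In every panel shown, the treated cultures of both lines lie on the same side of the untreated ones.

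Genes of the epithelial oxidases rose together. Of 8 tested genes of oxidases and nitric oxide synthase, 6 rose and none fell, with a median log2 fold change of 1.57. Duox2, the dual oxidase that releases hydrogen peroxide at the apical surface, was at 12.3, 13.8, 34.6 and 31.2 CPM untreated and 384, 412, 544 and 491 CPM treated (log2 fold change 4.42 ± 0.16, adjusted p = 7.87e-20). The genes of its maturation factors, Duoxa2 and Duoxa1, lie beside it on chromosome 2 and rose by 4.70 ± 0.14 and 5.11 ± 0.23. Duoxa1 overlaps Duoxa2 on the opposite strand (chr2:122302191-122313730 against chr2:122298900-122302885), and since the strand setting of the counting was not given, their reads cannot be fully told apart. Nos2, the inducible nitric oxide synthase, rose by 2.46 ± 0.11 and Noxo1, an organizer subunit of the NOX1 oxidase, by 0.68 ± 0.11. Nox1 itself did not pass, at 49.95 to 78.0 CPM untreated and 60.7 to 85.5 CPM treated.

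Of 14 tested fucosylation and transmembrane mucin genes, 8 rose and 1 fell, with a median of 0.52. Fut2, the fucosyltransferase that places terminal fucose on glycans of the gut surface, was at 0.943, 0, 1.21 and 0.415 CPM untreated and 185, 252, 158 and 216 CPM treated. The groups lay far apart, with a log2 fold change of 8.33 ± 0.25 (adjusted p = 1.12e-21). B3galt5, a galactosyltransferase that builds the glycan chains on which such fucose sits, went from 1.65, 1.97, 2.41 and 2.49 to 618, 623, 309 and 339 CPM (log2 fold change 7.92 ± 0.16, adjusted p = 1.90e-26). Enzymes that make the fucose donor moved less: Gmds rose by 0.97 ± 0.06, and Tsta3 had a log2 fold change of 0.12 ± 0.08 that did not pass. The membrane mucin genes Muc3, Muc13 and Muc4 rose by 1.30 ± 0.09, 1.05 ± 0.06 and 0.77 ± 0.09. Pofut1, which adds fucose to Notch receptors, fell, with a log2 fold change of -0.71 ± 0.09.

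Receptor and feedback genes of the pathway itself were on the rising side. In the list of IL-22 receptor and JAK-STAT3 genes, 8 of 16 tested members rose and none fell (median 0.35). Socs3, the feedback inhibitor of STAT3 signaling, was at 7.78, 6.89, 10.1 and 10.8 CPM untreated and 149, 176, 191 and 165 CPM treated, with every treated culture far above every untreated one (log2 fold change 4.30 ± 0.14, adjusted p = 3.13e-21). Stat3 rose by 1.46 ± 0.07, Bcl3, a nuclear partner of NF-κB, by 1.39 ± 0.10, and Jak2 by 0.56 ± 0.07. Il22ra1, which encodes a chain of the IL-22 receptor, was at 18.3 to 24.1 CPM untreated and 26.7 to 33.2 CPM treated (log2 fold change 0.56 ± 0.12), while its partner Il10rb missed the threshold at 0.41 ± 0.13 (adjusted p = 0.0144). Osmr, a receptor gene of the cytokine oncostatin M, had 0, 1, 1 and 0 counts untreated and 8, 8, 48 and 45 counts treated, a rise of at least 3.08 on the log2 scale. Socs2, Cish and Stat5a did not pass, with log2 fold changes of 0.12 ± 0.12, -0.03 ± 0.24 and -0.33 ± 0.22. Outside the list, Tifa, an adaptor in the sensing of a bacterial sugar, rose by 4.36 ± 0.13. Ptk6, an epithelial tyrosine kinase, rose from 2, 2, 2 and 0 to 113, 164, 93 and 111 counts, at least 5.29 on the log2 scale.

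STAT dimers bind the letters TTCNNNGAA, and these were searched on both strands of RefSeq promoters (GRCm38.p6, 250 bases before to 50 after the start site), which were matched for 9290 of the 12559 tested genes. The letters were present in 8.13% of all these promoters, 9.85% of those of genes that rose and 11.6% of those that rose by at least 1 on the log2 scale. They were present in 7.74% of those that fell, 7.46% of those that fell by at least 1 and 7.86% of those not called. Among the promoters that held them were those of Reg3b (chr6:78370736-78370784, plus strand), B3galt5 (chr16:96235771-96235800, plus strand) and Socs3 (chr11:117969492-117969540, minus strand), shown 5′ to 3′ on the gene's strand with the match in capitals because these 3 genes were among those that rose most. GENCODE places the Reg3b and Socs3 stretches in an intron of a longer transcript of the same gene and the B3galt5 stretch between genes. In the list of antimicrobial genes, 2 of 13 matched promoters held the letters, and in the list of pathway genes 2 of 13.
Reg3b: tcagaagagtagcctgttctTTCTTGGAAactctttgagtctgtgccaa
B3galt5: gttctgaacagcagtatcggTTCCTTGAAg
Socs3: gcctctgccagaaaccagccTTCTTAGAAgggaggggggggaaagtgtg

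Genes of the unfolded protein response rose in small steps. Of 26 tested members, 16 rose and none fell, with a median log2 fold change of 0.35. Xbp1, the transcription factor of this response, was at 172, 163, 162 and 153 CPM untreated and 420.4, 388, 351 and 359 CPM treated, and its log2 fold change of 1.22 ± 0.07 (adjusted p = 8.93e-15) was the largest of the list. Hspa5, the main chaperone of the endoplasmic reticulum, went from 746, 704, 721 and 734 to 1188, 1057, 1024 and 1122 CPM (log2 fold change 0.60 ± 0.06, adjusted p = 2.43e-09). The treated cultures were above the untreated ones for both genes. Calr, a lectin chaperone, rose by 0.56 ± 0.06, Creld2, a resident protein of the endoplasmic reticulum, by 0.69 ± 0.11, and Manf, a secreted stress factor, by 0.51 ± 0.07. The sensor genes Atf6 and Eif2ak3 (PERK) rose by 0.50 ± 0.08 and 0.46 ± 0.11, whereas the sensors Ern1 and Ern2 (IRE1α and IRE1β) did not pass, at 0.23 ± 0.13 and 0.06 ± 0.21. Dnajb9, Sdf2l1 and Edem1, targets of spliced Xbp1, also did not pass, with log2 fold changes of -0.05 ± 0.12, 0.04 ± 0.13 and 0.04 ± 0.08. Eif2ak3 was not past the threshold without untreated replicate 2 or 4 or treated replicate 2. Without the first line, 10 members of the list rose.

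The response element of the endoplasmic reticulum, searched as CCAAT and CCACG with any 9 bases between them, was found on either strand in 14 of the 9290 promoters (0.151%) and in 8 of the 21 matched promoters of the list. By call, it was in 6 of 1320 promoters of genes that rose (0.455%), 1 of 1111 that fell (0.09%) and 7 of 6859 not called (0.102%). Matches in Calr (chr8:84847055-84847113, minus strand), Creld2 (chr15:88819500-88819558, plus strand) and Dnajc3 (chr14:118937807-118937865, plus strand), which encodes a co-chaperone that rose by 0.40 ± 0.07, lay between genes in GENCODE and are shown with the element in capitals. A second element of this response, TGACGTGG, was present in 1.02% of all matched promoters and in 0 of the 21.
Calr: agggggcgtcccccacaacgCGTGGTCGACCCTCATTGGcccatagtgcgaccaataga
Creld2: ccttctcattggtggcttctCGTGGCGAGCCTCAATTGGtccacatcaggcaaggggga
Dnajc3: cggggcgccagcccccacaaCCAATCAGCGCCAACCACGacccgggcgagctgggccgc

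The integrated stress response, which runs from phosphorylated eIF2α to the factor ATF4, had 16 of 20 tested genes higher and none lower (median 0.52). Atf4 rose by 0.64 ± 0.06 and Nupr1, a stress-induced chromatin protein, by 1.43 ± 0.14. Slc7a11, the cystine importer, was at 87.5, 92.5, 91.3 and 102 CPM untreated and 214, 183, 205 and 237 CPM treated, without overlap (log2 fold change 1.16 ± 0.08, adjusted p = 1.51e-12). Trib3 and Chac1, which act downstream of ATF4, rose by 0.90 ± 0.10 and 0.75 ± 0.11. Ddit3 (CHOP), the factor linked to stress-induced death, did not pass, at 23.3 to 32.5 CPM untreated and 23.5 to 52.6 CPM treated (log2 fold change 0.19 ± 0.16).

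IFN-stimulated genes (ISGs) rose as a group. Of 42 tested members, 30 rose and none fell, with a median log2 fold change of 0.87, and 17 further members had too few counts to be tested. Isg15, a ubiquitin-like modifier, was at 2.12, 4.43, 2.41 and 4.57 CPM untreated and 17.8, 10.5, 11.5 and 26.3 CPM treated (log2 fold change 2.23 ± 0.30, adjusted p = 5.60e-07). Zbp1, a sensor of nucleic acids in Z form, was counted 3, 1, 5 and 13 times untreated and 53, 81, 53 and 77 times treated (log2 fold change 3.58 ± 0.35, adjusted p = 9.83e-10). Both groups were separate for each gene. Among antiviral effectors, Oas3 rose by 2.05 ± 0.28, Rsad2 (viperin) by 1.67 ± 0.33, Ifit1 by 1.47 ± 0.32 and Igtp, an immunity-related GTPase, by 2.16 ± 0.37. The PARP family members Parp14 and Parp9 and the Parp9 partner Dtx3l had the smallest p-values of the list, with log2 fold changes of 1.56 ± 0.14, 1.24 ± 0.09 and 1.15 ± 0.10. Irf7 rose by 1.46 ± 0.18 and Irf9 by 0.90 ± 0.15, while Stat2, Ifih1, Bst2 and Ifi27 did not pass, at 0.23 ± 0.14, 0.38 ± 0.12, 0.11 ± 0.15 and -0.02 ± 0.18. The Oas genes are close paralogs, and their single levels are uncertain. Without the second line, 17 ISGs rose. Of the list of nucleic acid sensors and IFN ligands and receptors, 3 of 13 tested members rose and none fell. The share that rose was 23.1%, against 13.8% of all tested genes. Among the members that rose were the kinase gene Tbk1 (0.61 ± 0.10) and the receptor gene Ifngr1 (0.22 ± 0.07). Ifngr1 lost its call without any one of untreated replicates 1 and 4 and treated replicates 1, 3 and 4, in DESeq2 and in the fit of ΔIEC cultures alone, and Ifih1 passed without untreated replicate 4 or treated replicate 3. The ligand genes Ifnb1, Ifnl2 and Ifnl3 were too low to be tested.

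The IFN-stimulated response element was searched as GAAA and GAAA with any 2 bases between them, on both strands. It was present in 3.68% of the 9290 promoters, 5.00% of those of genes that rose and 7.39% of those that rose by at least 1 on the log2 scale. It was also present in 3.06% of those that fell, 4.75% of those that fell by at least 1 and 3.53% of those not called. In the ISG list, 17 of 35 matched promoters held it (48.6%). The STAT letters were present in 10 of these 35 (28.6%), and Igtp held both motifs within a single stretch. Isg15 held 3 overlapping matches, and Oas1a held overlapping matches at bases -20 to -11 and -14 to -5 from the start site. The stretches of Isg15 (chr4:156200855-156200904, minus strand), Oas1a (chr5:120907526-120907565, minus strand) and Igtp (chr11:58199502-58199551, plus strand) are printed with a single match of this motif in capitals. In Oas1a the capitals are the match at -20 to -11, and the stretch ends at the start site. GENCODE has no gene at any of the 3. In Igtp the STAT match ttctaggaa lies 2 bases before the capitals.
Isg15: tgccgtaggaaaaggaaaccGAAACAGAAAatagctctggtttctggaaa
Oas1a: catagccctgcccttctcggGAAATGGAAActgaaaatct
Igtp: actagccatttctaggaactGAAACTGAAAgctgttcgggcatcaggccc

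Antigen presentation genes rose in part. Of 17 tested MHC class I and immunoproteasome genes, 9 rose and 2 fell (median 0.32). H2-D1, a classical class I heavy chain, was at 291 to 395 CPM untreated and 517 to 682 CPM treated (log2 fold change 0.81 ± 0.07), and the immunoproteasome subunits Psmb8 and Psmb10 rose by 1.26 ± 0.17 and 0.81 ± 0.10. B2m, the light chain of class I, did not pass (0.08 ± 0.09), and the nonclassical H2-Q1 and H2-Q2 fell, at -0.46 ± 0.11 and -0.63 ± 0.09. H2 genes share long stretches of sequence, so their single levels are uncertain. Of 7 tested MHC class II genes, 5 rose and none fell (median 1.18). H2-Eb1 was at 0.236, 0.738, 2.01 and 1.66 CPM untreated and 1.22, 1.42, 9.07 and 6.95 CPM treated (log2 fold change 1.92 ± 0.37), H2-Ab1 rose by 0.98 ± 0.17, and Ciita, the master regulator of the class, went from 2, 0, 3 and 2 to 4, 6, 22 and 25 counts, at least 2.14 on the log2 scale. The subunits of the constitutive proteasome moved little, with 8 of 31 higher and none lower (median 0.19), of which Psmd14 was the largest at 0.37 ± 0.07. That count was 3 without untreated replicate 2, 4 without treated replicate 4, 1 without the first line and 2 without the second. Without the second line, 5 MHC class I genes and 2 MHC class II genes rose. H2-Eb1, H2-Ab1 and Ciita kept their direction in that setting but did not pass.

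NF-κB regulators were higher in 12 of 17 tested genes and lower in none (median 0.60). Tnip3, an inhibitor of NF-κB signaling, rose by 3.04 ± 0.26, Icam1, an adhesion receptor, by 2.85 ± 0.25, Tnfaip3 (A20) by 1.23 ± 0.10, and Birc3, which ubiquitinates RIPK1, by 1.05 ± 0.09. Of 13 tested chemokine and cytokine genes, 8 rose and 2 fell (median 0.72). Il33, an alarmin kept in epithelial nuclei, was at 20.98, 21.7, 27.3 and 23.7 CPM untreated and 104, 77.8, 159 and 143 CPM treated (log2 fold change 2.31 ± 0.13, adjusted p = 3.66e-15). Il18, which is released after inflammasome activation, rose by 1.16 ± 0.14, and Tnfsf10 (TRAIL) by 1.30 ± 0.15. The chemokines that fell, Ccl25 and Ccl28, attract gut-homing lymphocytes, and had log2 fold changes of -0.60 ± 0.07 and -0.88 ± 0.11. Ccl20 did not pass (-0.19 ± 0.25).

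Cell death genes rose in 14 of 22 tested members and fell in 3 (median 0.51). Ripk3, the kinase of necroptosis, was at 46.2, 48.5, 61.1 and 59.4 CPM untreated and 108, 119, 164 and 156 CPM treated (log2 fold change 1.34 ± 0.08, adjusted p = 2.04e-14). Casp8, which cleaves RIPK1 and RIPK3, rose by 1.03 ± 0.07, Casp4, a sensor of lipopolysaccharide, by 1.31 ± 0.19, and Gsdmd, the pore-forming gasdermin D, by 0.96 ± 0.08. Genes on the other side included Nlrp6 (-0.83 ± 0.07), which encodes an inflammasome sensor of the gut, and the caspase gene Casp9 (-0.44 ± 0.12). Casp1, Fadd and Pycard did not pass, at 0.03 ± 0.11, 0.08 ± 0.11 and 0.13 ± 0.07. The fall of Casp9 did not pass without untreated replicate 2 or 4 or treated replicate 2.

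Most autophagy genes were not called. Of 28 tested members besides Atg16l1, 4 rose and 1 fell, with a median of 0.05, and the share that rose was close to the 13.8% of all tested genes. Those that rose were the cargo receptors Sqstm1 (p62) at 0.67 ± 0.08 and Tax1bp1 at 0.84 ± 0.06, and the LC3 relatives Gabarap and Gabarapl1 at 0.32 ± 0.07 and 0.47 ± 0.11. Ulk1, the kinase that starts autophagy, fell (-0.57 ± 0.11). Atg12, which binds ATG16L1 through ATG5, did not pass (-0.16 ± 0.09), nor did Map1lc3b, which encodes an LC3 protein (0.11 ± 0.08). Lysosome genes moved in both directions: 4 of 22 rose, such as the protease genes Ctsl and Ctsz (0.59 ± 0.08 and 0.49 ± 0.10), and 5 fell, with a median of 0.09. The shares of this list were 18.2% and 22.7%, against 13.8% and 11.7% of all tested genes. Without the second line, 2 autophagy genes rose and none fell, and 3 lysosome genes fell when either line was left out. Gabarapl1 did not pass without untreated replicate 4 or treated replicate 4.

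Genes of epithelial regeneration and EGF receptor signaling rose in 13 of 16 tested members and fell in none (median 0.82). Ly6a (Sca-1), a surface marker of fetal-like, regenerating epithelium, was at 34.0, 48.0, 81.2 and 67.7 CPM untreated and 453, 436, 614 and 667 CPM treated (log2 fold change 3.27 ± 0.12, adjusted p = 1.37e-19). Its relative Ly6c1 rose by 5.29 ± 0.22. Anxa8 and Anxa1, membrane-binding annexins, rose by 3.62 ± 0.34 and 2.11 ± 0.11, and the EGF receptor ligands Areg and Ereg by 1.24 ± 0.09 and 1.24 ± 0.22. Egfr itself was at 41.0 to 49.1 CPM untreated and 50.3 to 107 CPM treated, without overlap (log2 fold change 0.74 ± 0.12). Clu, another marker of regenerating epithelium, did not pass (0.28 ± 0.13) but did without untreated replicate 3. Of 14 tested tight junction genes, 9 rose and none fell (median 0.47), with Cldn4 at 0.90 ± 0.11, Tjp1 (ZO-1) at 0.57 ± 0.07 and the pore-forming Cldn2 at 0.46 ± 0.06. Ceacam1, an adhesion receptor of the apical surface, had the fourth smallest p-value of the genes that rose, from 278, 287, 316 and 323 CPM to 1163, 1145, 1396 and 1383 CPM (log2 fold change 2.07 ± 0.06, adjusted p = 3.79e-22).

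Hypoxia and glycolysis genes were mixed, with 11 of 24 higher and 4 lower (median 0.18). Hif1a, the oxygen-regulated transcription factor, went from 95.3, 91.3, 77.6 and 74.8 to 315, 265, 230.0 and 242 CPM (log2 fold change 1.63 ± 0.07, adjusted p = 1.38e-17), and Hk2 and Pfkfb3, which drive the early steps of glycolysis, rose by 1.83 ± 0.08 and 0.87 ± 0.08. The later enzymes Gapdh, Pgk1 and Eno1 did not pass, at 0.08 ± 0.08, 0.17 ± 0.07 and 0.18 ± 0.08, although Pgk1 and Eno1 passed without untreated replicate 2, and Eno1 without treated replicate 1. Of 20 tested glutathione and NRF2 target genes, 9 rose and 3 fell (median 0.20). Gpx2, the glutathione peroxidase of the gut epithelium, was at 491, 470.0, 448 and 417 CPM untreated and 2131, 2013, 1831 and 1870.0 CPM treated (log2 fold change 2.10 ± 0.07, adjusted p = 2.16e-20), and Hmox1 and Gsr rose by 1.57 ± 0.15 and 1.00 ± 0.06. Those that fell were the glutathione transferases Gstm1 (-2.18 ± 0.07) and Gstm3 (-2.32 ± 0.10) and the NRF2 target Nqo1 (-0.39 ± 0.09). Nfe2l2 (NRF2) itself rose by 0.21 ± 0.06, a call lost without untreated replicate 1, 3 or 4, without treated replicate 4, in the fit of ΔIEC cultures alone and after summing the cultures of each line. Without the second line, 7 genes of glycolysis and hypoxia and 4 of glutathione and NRF2 rose, and without the first line 2 genes of glycolysis and hypoxia fell.

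Fbp1 and Lct came first by fold change among the genes that fell (at least 5 CPM untreated, no overlap). Fbp1, a gluconeogenic enzyme, was at 55.9, 54.1, 33.8 and 39.0 CPM untreated and 2.03, 2.84, 1.21 and 0.289 CPM treated, with a log2 fold change of -4.81 ± 0.24 (adjusted p = 3.07e-16). Lct, the lactase of the brush border, went from 57.1, 58.3, 22.9 and 19.9 to 1.62, 4.83, 0.907 and 0.289 CPM (-4.28 ± 0.22, adjusted p = 3.90e-16). In both genes every treated culture lay below every untreated one. G6pc, the last enzyme of glucose release, had a log2 fold change of -3.54 ± 0.31, Slc37a2, a sugar phosphate transporter, -3.42 ± 0.29, Acaa1b, a peroxisomal thiolase, -4.05 ± 0.45, and Leap2, a peptide that opposes ghrelin, -3.93 ± 0.26. Cps1 and Oat, mitochondrial enzymes of citrulline and ornithine metabolism, went from 2819 to 3213 and 1433 to 1846 CPM to 1054 to 1195 and 488 to 595 CPM. The summed enterocyte markers (Alpi, Sis, Fabp1, Fabp2, Apoa1 and Vil1) were at 3200.0 to 3635 CPM in untreated and 1543 to 1898 CPM in treated cultures, where 5 of the 6 fell and Vil1 rose. The part of this shift in the results on enterocyte genes was not tested.

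Xenobiotic metabolism was lower in 17 of 23 tested genes and higher in 1 (median -1.12). Cyp3a11, the main drug-metabolizing cytochrome, was at 38.4, 22.9, 18.5 and 19.5 CPM untreated and 2.03, 2.84, 0.302 and 0 CPM treated (log2 fold change -4.25 ± 0.39, adjusted p = 3.53e-10). Ces2a and Ces2c, carboxylesterases, and Ces1d from outside the list had log2 fold changes of -2.82 ± 0.12, -2.21 ± 0.11 and -4.01 ± 0.35. Paralogs of these families lose reads to multiple alignment. Adh1, which oxidizes ethanol and retinol, had the smallest p-value of the genes that fell: 729.5, 768, 821 and 763 CPM untreated against 142, 144, 134 and 116 CPM treated (log2 fold change -2.52 ± 0.08, adjusted p = 1.88e-21). It lies on chromosome 3 (chr3:138260991-138290698) in a cluster with Adh6a (chr3:138313286-138331134) and Adh4 (chr3:138415466-138430892), which fell as well, at -1.69 ± 0.09 and -3.96 ± 0.28. The regulators of these enzymes, Nr1i2 (PXR) and Nr1i3 (CAR), did not pass, at -0.10 ± 0.10 and -0.11 ± 0.12. Sord, the sorbitol dehydrogenase, was the gene that rose (0.78 ± 0.08).

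Of 9 tested vitamin A genes, 6 fell and none rose (median -1.09). Rdh7, a retinol dehydrogenase, had a log2 fold change of -3.94 ± 0.29, Aldh1a1, which makes retinoic acid, -1.35 ± 0.18, and Lrat, which stores retinol as esters, -1.95 ± 0.30. Rbp2, the retinol carrier of the enterocyte, went from 213, 184, 138 and 121 to 134, 128, 30.5 and 42.2 CPM (-1.09 ± 0.15, adjusted p = 1.27e-06). Isx, a homeobox factor that represses vitamin A uptake genes, moved the other way, from 4.72, 3.45, 23.7 and 13.7 to 61.6, 67.0, 77.7 and 97.8 CPM (log2 fold change 2.91 ± 0.20, adjusted p = 3.29e-13).

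Lipid handling was lower at several steps. Of 18 tested genes of lipid absorption and lipoproteins, 13 fell and 1 rose (median -0.46), with the fatty acid–binding proteins Fabp2 and Fabp1 at -2.08 ± 0.11 and -1.80 ± 0.15, the apolipoprotein Apoc3 at -2.76 ± 0.23 and the sterol exporter Abcg8 at -1.19 ± 0.10. Apob, the structural protein of chylomicrons, rose by 0.37 ± 0.09. Of 19 tested genes of fatty acid oxidation and ketogenesis, 9 fell and 1 rose (median -0.35), Hadh and Ehhadh at -1.16 ± 0.07 and -1.01 ± 0.09. Sterol and fatty acid synthesis fell in 18 of 26 tested genes and rose in none (median -0.35). Scd1, the desaturase that makes oleate, was at 636, 683, 566 and 603 CPM untreated and 206, 193, 171 and 147 CPM treated (-1.80 ± 0.09, adjusted p = 1.65e-16), Insig1, a brake on sterol synthesis, fell (-0.93 ± 0.06), as did Dhcr7 (-1.06 ± 0.08), while Srebf2, a transcription factor of sterol synthesis, did not pass (0.02 ± 0.06). Without the second line, 11 of these genes fell. The rise of Apob was not past the threshold without untreated replicate 4, treated replicate 1 or treated replicate 4, and that of Acadl, the 1 gene of fatty acid oxidation that rose (0.29 ± 0.08), without any of untreated replicates 1, 2 and 3 and treated replicates 1 and 4.

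Nutrient and iron transporters fell in 10 of 20 tested genes and rose in 3 (median -0.40). Slc11a2 (DMT1), which imports iron across the brush border, was at 612, 748, 1026 and 972 CPM untreated and 126, 157, 182 and 121 CPM treated (log2 fold change -2.49 ± 0.12, adjusted p = 6.06e-17). Cybrd1, the ferric reductase beside it, fell as well (-1.24 ± 0.12), and so did the iron exporter Slc40a1 (-0.44 ± 0.10). The glucose carriers Slc2a2 (GLUT2) and Slc5a1 (SGLT1) had log2 fold changes of -2.77 ± 0.18 and -0.96 ± 0.07, whereas the peptide carrier Slc15a1 did not pass (0.07 ± 0.29). The 3 that rose were the sulfate carrier Slc13a1 (1.61 ± 0.15), the nucleoside carrier Slc28a2 (0.77 ± 0.23) and the cystine carrier Slc7a9 (0.53 ± 0.14), and only 1 rose without untreated replicate 1, treated replicate 1 or treated replicate 4. Chloride, bicarbonate and water transport genes fell in 8 of 15 and rose in 4 (median -0.24). The water channel Aqp1 was at 84.7 to 93.3 CPM untreated and 23.3 to 24.6 CPM treated (-1.92 ± 0.09), the carbonic anhydrase Car2 fell (-1.32 ± 0.18), and the sodium-proton exchanger Slc9a3 (NHE3) rose by 1.54 ± 0.11. Cftr, the chloride channel, fell by a small step (-0.24 ± 0.07) that was not past the threshold in 15 of 21 alternatives, among them leaving out any untreated culture or treated replicate 2 or 4. When either line was left out, 5 of these 15 genes fell. Slc28a2 did not pass in 15 of 21 alternatives, among them without untreated replicate 1, 3 or 4 or treated replicate 1, 3 or 4. Without the second line its log2 fold change was 0.0145. Slc7a9 did not pass without untreated replicate 1, treated replicate 1 or 4, or the first line.

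Brush border and hydrolase genes split: 7 of 21 rose and 8 fell (median -0.19). The digestive enzymes Alpi and Sis had log2 fold changes of -1.51 ± 0.10 and -1.64 ± 0.12. The peptidases Ace and Enpep rose by 1.47 ± 0.13 and 0.81 ± 0.14, as did the microvillus genes Cdhr5, Myo1a and Vil1 (0.73 ± 0.08, 0.37 ± 0.07 and 0.28 ± 0.07). Of 18 tested enterocyte transcription factors, 6 rose and 6 fell (median 0.01). Prdm1 (Blimp-1), Elf3 and Klf5 rose by 1.64 ± 0.30, 1.04 ± 0.06 and 0.77 ± 0.08, whereas the nuclear receptors Ppara and Vdr fell, at -1.26 ± 0.18 and -1.03 ± 0.06. Hnf4a did not pass (0.04 ± 0.06). The rise of Vil1 was lost without untreated replicate 1 or 4 or treated replicate 2, 3 or 4. Enpep had a log2 fold change of 0.18 without the first line and did not pass. It also did not pass without the line as a block or in limma-voom.

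Mitochondrially encoded protein-coding genes fell in all 8 tested members (median -0.50). mt-Co1, a subunit of cytochrome oxidase, was at 4812, 4312, 4070.2 and 4596 CPM untreated and 2589, 2144, 2899 and 2404 CPM treated (log2 fold change -0.83 ± 0.08, adjusted p = 1.22e-09). The others lay between -0.62 (mt-Atp8) and -0.42 (mt-Cytb) on the log2 scale. Genes of the mitochondrial genome took 1.12% to 1.37% of the gene counts in untreated and 0.671% to 0.883% in treated cultures, and these ranges did not overlap. The number that fell was 3 without the line as a block, 5 with the line as a random effect in limma-voom and 1 against a fold change of 1.5, and mt-Cytb was not past the threshold without untreated replicate 1. The median of the 8 genes stayed between -0.61 and -0.41 when each culture or line was left out in turn.

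Crypt stem cell and Wnt target genes were lower in 11 of 22 tested members and higher in 1 (median -0.34). Olfm4, a marker of crypt base stem cells, was at 660.2, 517, 581 and 579 CPM untreated and 300.1, 169, 159 and 170.2 CPM treated (log2 fold change -1.58 ± 0.13, adjusted p = 5.57e-11), and Smoc2 at 178, 164, 149.6 and 170.3 against 64.0, 55.1, 60.7 and 51.5 CPM (-1.52 ± 0.08, adjusted p = 8.35e-16). For both genes the groups did not overlap. Lgr5 and Ascl2, the receptor and the transcription factor that define these cells, fell with log2 fold changes of -0.61 ± 0.13 and -0.58 ± 0.12, and the Wnt feedback gene Axin2 with -0.94 ± 0.08. The summed level of these 4 stem cell markers was 776 to 916 CPM in untreated and 277 to 420 CPM in treated cultures. Not past the threshold were Myc (-0.06 ± 0.08), Cd44 (0.04 ± 0.09), Sox9 (-0.33 ± 0.11) and Hopx (-0.22 ± 0.07), and Prom1 rose (1.04 ± 0.06). Without the first line, Lgr5 and Ascl2 did not pass, with log2 fold changes of -0.53 and -0.48. Lgr5 also did not pass without the line as a block or in limma-voom. Hopx passed without untreated replicate 2 or treated replicate 1, and Sox9 without treated replicate 2. In that last setting, 2 genes of the list rose.

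DNA replication genes fell in 19 of 28 tested members and rose in none (median -0.48). Mcm7, a subunit of the replicative helicase, was at 214, 229.8, 213 and 217 CPM untreated and 123, 145, 139 and 135 CPM treated (-0.69 ± 0.07, adjusted p = 8.35e-09), and Mcm6 and Lig1 had log2 fold changes of -0.57 ± 0.07 and -0.64 ± 0.08. Mitosis genes moved less, with 5 of 25 lower and none higher (median -0.21), among them Ccnb2 (-0.46 ± 0.08) and Aurkb (-0.35 ± 0.09), while Mki67 (-0.24 ± 0.07) and Top2a (-0.06 ± 0.08) did not pass. That count was 8 without untreated replicate 2, 2 without untreated replicate 3, 10 without treated replicate 1, 3 without treated replicate 2 and 1 without the second line. Aurkb lost its call without untreated replicate 3 or treated replicate 1 or 4, and Mki67 passed without untreated replicate 2 or 4 or treated replicate 1. None of 23 ribosome biogenesis genes was called in either direction, and their log2 fold changes ran from -0.26 (Fbl) to 0.31 (Rrs1). Without treated replicate 1, 1 of them fell, without treated replicate 2, 1 rose and 1 fell, and without the first line 3 fell. Of 18 tested Notch and BMP genes, 1 rose, Id1 (1.00 ± 0.10), and 4 fell, among them Id2 (-1.43 ± 0.15) and Hes1 (-0.67 ± 0.10). The shares of this list were 5.56% and 22.2%, against 13.8% and 11.7% of all tested genes. Without treated replicate 4, 2 Notch and BMP genes rose.

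Secretory lineages showed no common direction. Of 18 tested Paneth cell genes, 6 rose and 2 fell (median 0.54), but Lyz1, the lysozyme that defines the cell, was at 1493 to 1895 CPM untreated and 1619.7 to 1866 CPM treated and did not pass (0.05 ± 0.07). The matrix protease Mmp7, which activates defensins, rose by 1.60 ± 0.08, and most defensin genes did not pass. At most 1 Paneth cell gene fell when any single culture was left out. The Paneth marker sum was 3093 to 4045 CPM untreated and 3815 to 4504 CPM treated. Of 19 tested goblet cell genes, 4 rose and 5 fell (median -0.06). Muc2, the secreted mucin, rose by 1.12 ± 0.10, and Agr2, which folds it, by 0.77 ± 0.07, but Tff3, Clca1, Fcgbp and Zg16, other secreted mucus components, fell, with log2 fold changes of -0.86 ± 0.07, -1.30 ± 0.16, -0.98 ± 0.08 and -0.93 ± 0.22. The goblet marker sum was 1176 to 1607 CPM untreated and 584 to 1083 CPM treated. Of 17 tested enteroendocrine genes, 3 rose and 1 fell (median 0.07), Gcg (proglucagon) at 1.497 ± 0.40 and Tac1 at 1.42 ± 0.21 on one side and Reg4 at -2.91 ± 0.10 on the other, whereas Chga and Chgb did not pass (-0.19 ± 0.14 and 0.13 ± 0.09). Only 1 enteroendocrine gene rose without untreated replicate 1 or when either line was left out. Gcg did not pass without untreated replicate 1 or treated replicate 1 or 3, nor Zg16 without untreated replicate 3. Of 4 tested tuft cell genes, 1 rose, Avil (1.73 ± 0.24), and Dclk1 did not pass (-0.45 ± 0.33). Of the Paneth cell list 33.3% rose and 11.1% fell, and of the goblet cell list 21.1% and 26.3%. Of the enteroendocrine list 17.6% rose and 5.88% fell. Among all tested genes these shares were 13.8% and 11.7%. In the stromal marker list 1 gene could be tested and was not called.

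**Figure D3:**
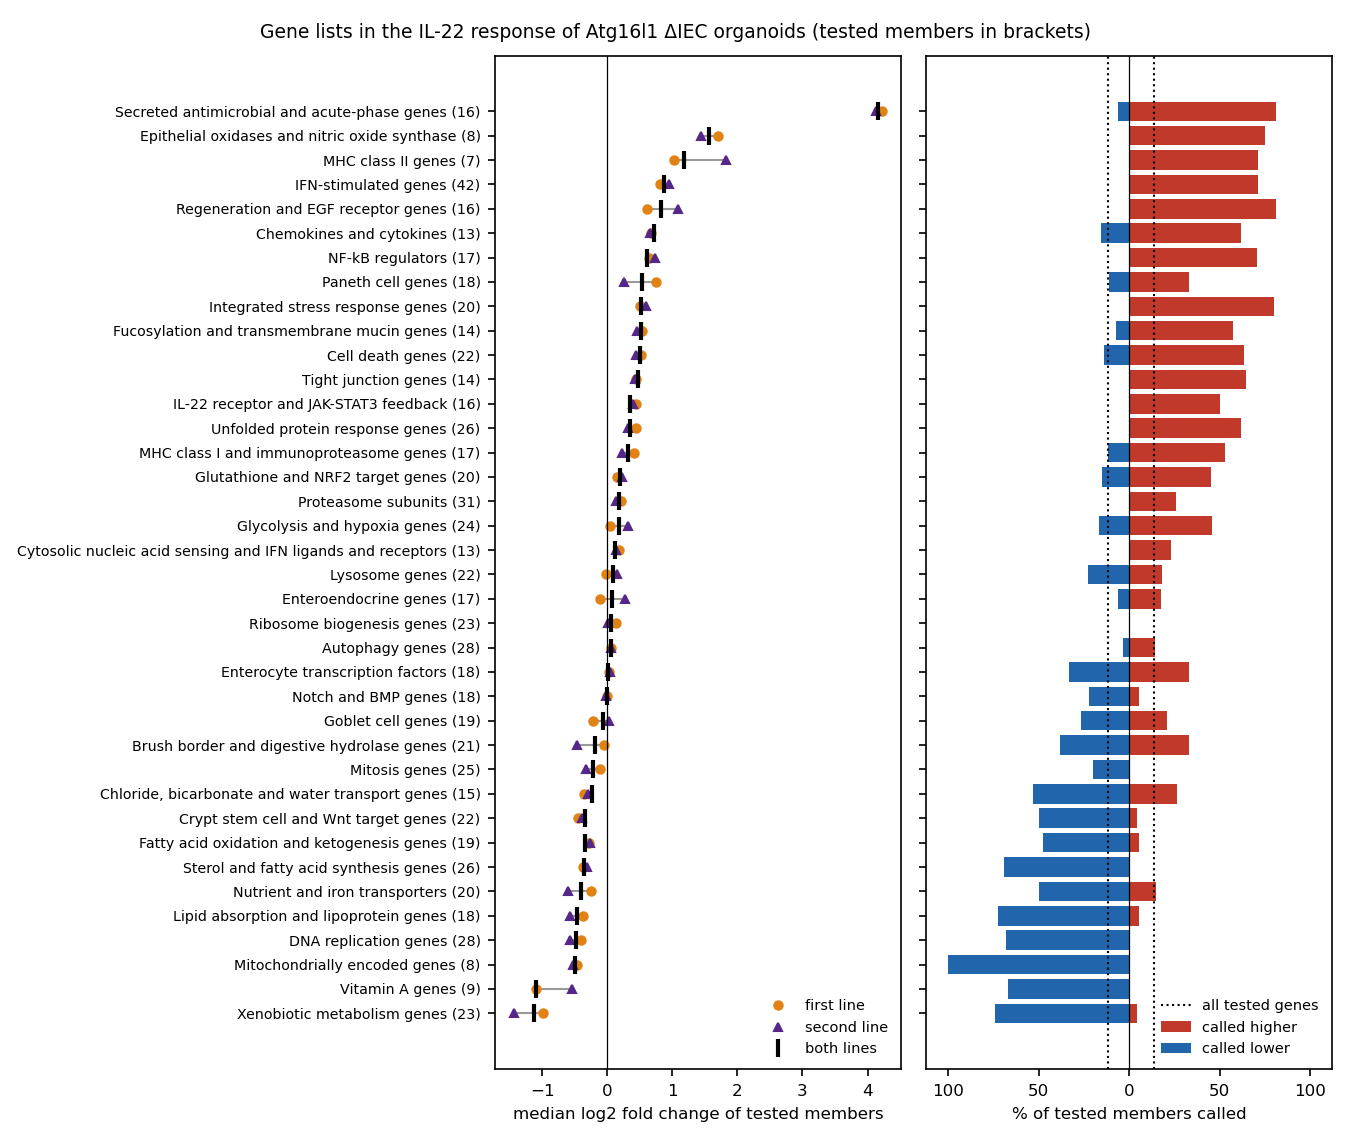
Gene lists with at least 7 tested members, ordered by their median log2 fold change to IL-22 in Atg16l1 ΔIEC organoids (left panel; circle, first line; triangle, second line; bar, both lines), with the percent of tested members called higher (red, to the right) and lower (blue, to the left) in the right panel. Dotted lines mark the 13.8% and 11.7% of all tested genes; antimicrobial genes are at the top at 4.16 and xenobiotic metabolism genes at the bottom at -1.12.

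The response was then compared between the ΔIEC lines. Of the 1727 genes that rose, 1725 had a positive fold change in each line, and of the 1471 that fell, 1470 had a negative one. The calls came from these same cultures of both lines, so agreement in sign was largely fixed by the choice of genes. Tested alone, 15.4% of tested genes passed in the first line (1090 higher, 850 lower) and 16.4% in the second (1176 higher, 884 lower), and 817 higher and 571 lower genes passed in both. Over all tested genes, the log2 fold changes of the lines had a Pearson correlation of 0.79 and a Spearman correlation of 0.685 across genes, which are not independent replicates. The difference of the responses passed the threshold in 14 genes (0.111% of those tested), with 858 at an unadjusted p under 0.05. In 13 of the 14 (0.104% of tested genes) the fold change of the second line was the lower one, and in 1 (0.00796%) the higher one. The count was 61 without treated replicate 2, 9 without treated replicate 3 and 8 without untreated replicate 3.

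Apoa4, a chylomicron apolipoprotein, fell in both lines but further in the second, with log2 fold changes of -0.76 and -2.22 (difference -1.46 ± 0.15, adjusted p = 1.01e-06). Fabp1 did the same, at -1.24 and -2.58 (difference -1.34 ± 0.16, adjusted p = 5.61e-06). Apoa1 had -0.15 in the first line, where it did not pass, and -1.91 in the second (difference -1.76 ± 0.23, adjusted p = 2.54e-05). Anpep, a brush border peptidase, went in opposite directions: the 2 untreated cultures of the first line and then the 2 of the second had 30.2, 39.4, 37.8 and 34.9 CPM, and the treated ones 93.2, 71.9, 17.5 and 18.8 CPM. Its log2 fold change was 1.23 in the first and -0.999 in the second line (difference -2.23 ± 0.25, adjusted p = 1.98e-06), and over both lines it was not called. Cyp2b10, Sis, Slc2a5 and Rbp2 also fell further in the second line, with differences of -1.83 ± 0.24, -0.99 ± 0.16, -1.35 ± 0.21 and -1.22 ± 0.22. Isx rose less in the second line (3.97 and 2.22), and Pla2g5, a secreted phospholipase, rose in the first line by 1.13 and had -0.01 in the second. Ndrg1, a hypoxia-induced gene, was the single gene with the higher value in the second line, at -0.03 and 0.84.

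**Figure D4:**
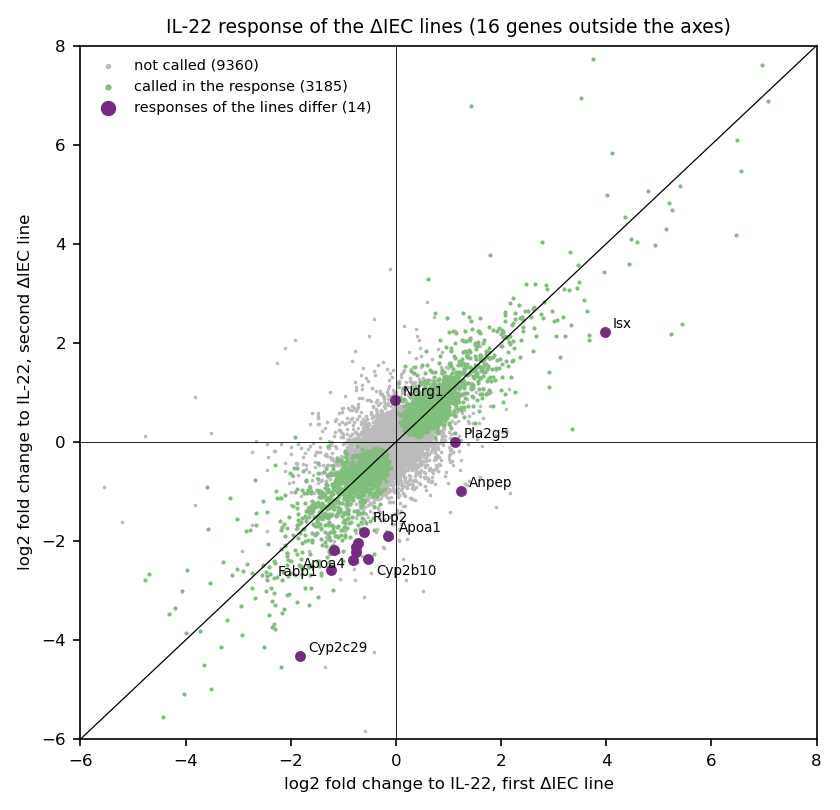
Log2 fold change to IL-22 in the first ΔIEC line (horizontal) and in the second (vertical), 1 point per tested gene, with the diagonal of equal change; purple points are the 14 genes whose responses differed. All of these but Ndrg1 lie below the diagonal, and 16 genes lie outside the axes.

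Last, the response was set against that of the Atg16l1 fl/fl organoids. In the same fit, 15.0% of tested genes rose and 15.6% fell in fl/fl organoids, and 1326 of the genes that rose in ΔIEC organoids and 1081 of those that fell were called in the same direction there. The difference of the responses (ΔIEC minus fl/fl) passed the threshold in 56 genes (0.446%), 15 with the higher (0.119%) and 41 with the lower value (0.326%) in ΔIEC organoids, and 1661 genes had an unadjusted p under 0.05. Without the line as a block, 2 genes passed, with the line as a random effect in limma-voom 5, and after summing the cultures of each line 11, so this count rests on the use of the line. It was also 109 without treated replicate 3, 30 without treated replicate 4 and 103 without the second line. Each genotype had 2 lines, and line and genotype cannot be told apart in these differences.

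Antimicrobial genes were among those with the higher value in ΔIEC organoids. Mptx2 rose by 6.17 in ΔIEC and 2.64 in fl/fl organoids on the log2 scale (difference 3.53 ± 0.43, adjusted p = 1.20e-05). Lypd8 and Pla2g2a also rose further in ΔIEC organoids, by differences of 0.68 ± 0.10 (adjusted p = 1.15e-04) and 1.18 ± 0.19 (adjusted p = 5.94e-04). Gpx2 rose less, 2.10 against 3.00 (difference -0.90 ± 0.10, adjusted p = 1.82e-06), and so did Clca4b, a member of the calcium-activated chloride channel regulator family (difference -0.78 ± 0.11, adjusted p = 7.10e-05). Reg3b and Reg3g were not past the threshold, with differences of 0.73 ± 0.16 (adjusted p = 0.0143) and 0.44 ± 0.20 (adjusted p = 0.33). Adh1 and Adh6a fell further in ΔIEC organoids, with differences of -1.08 ± 0.10 (adjusted p = 2.52e-07) and -0.94 ± 0.12 (adjusted p = 3.92e-05), as did the iron importer Slc11a2 (-0.97 ± 0.16, adjusted p = 6.20e-04). Sord and Sult6b2, a sulfotransferase, rose in ΔIEC organoids and were not called in fl/fl organoids (differences 0.92 ± 0.11, adjusted p = 1.20e-05 and 1.18 ± 0.19, adjusted p = 4.54e-04). The aldo-keto reductase Akr1c19 and the retinol carrier Rbp2 fell less in ΔIEC organoids (1.72 ± 0.24, adjusted p = 9.68e-05 and 1.36 ± 0.26, adjusted p = 0.00426), and the fall of Akr1c19 there was not past the threshold without untreated replicate 1 or 4 or treated replicate 2. Fcgbp, a component of mucus, had -0.98 in ΔIEC and -0.20 in fl/fl organoids (-0.78 ± 0.11, adjusted p = 1.24e-04).

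Among the mitochondrially encoded protein-coding genes, mt-Co1 was at 4448 ± 324 CPM untreated and 2509 ± 318 CPM treated (SD, n = 4) in ΔIEC organoids, and at 7634 ± 1654 and 7549 ± 1533 CPM in fl/fl organoids (difference of the responses -0.81 ± 0.11, adjusted p = 1.05e-04). The difference passed in 7 of the 8 genes, with medians of -0.50 in ΔIEC and 0.24 in fl/fl organoids, in 3 of 8 after summing the cultures of each line, and in 0 of 8 without the line as a block or with limma-voom. In the mitosis list the medians were -0.21 in ΔIEC and -0.64 in fl/fl organoids, where all 25 genes fell, and the difference passed in 2 genes of the list, Ccnb1 and Hmmr (0.57 ± 0.12, adjusted p = 0.00929 and 0.72 ± 0.14, adjusted p = 0.0037). Of the ISG, unfolded protein response, integrated stress response, NF-κB and cell death lists, no member had a difference past the threshold. Their medians were 0.871, 0.345, 0.518, 0.604 and 0.507 in ΔIEC and 0.562, 0.241, 0.506, 0.535 and 0.423 in fl/fl organoids. In the ISG list, 30 members rose and 0 fell in ΔIEC organoids, against 15 and 1 in fl/fl organoids. In simulated counts, this test called 38% of genes whose response differed 1.5-fold and 66% of those at 2-fold, so smaller differences could be missed. Those counts held no difference in response between lines of a genotype, so these shares may be too high for 2 lines.

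**Figure D5:**
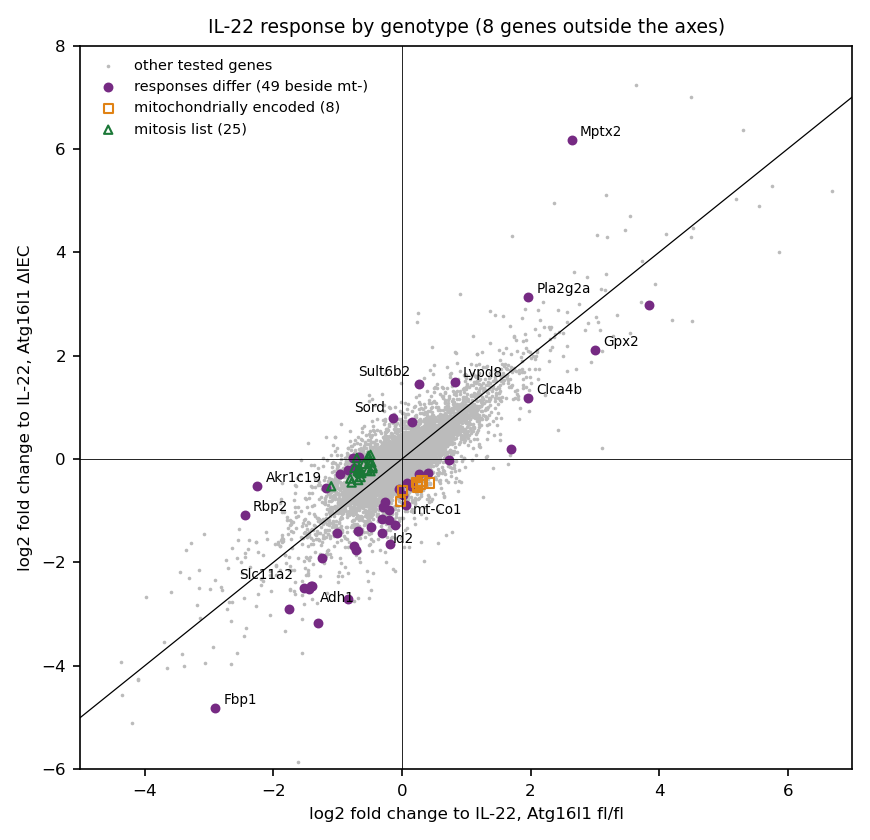
Log2 fold change to IL-22 in Atg16l1 fl/fl (horizontal) and Atg16l1 ΔIEC organoids (vertical), with the diagonal of equal change; purple points are the 49 genes, besides the mitochondrially encoded ones, whose responses differed. The mitochondrially encoded protein-coding genes (orange squares) lie below the diagonal and the genes of the mitosis list (green triangles) above it, and 8 genes lie outside the axes.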

How the data were processed

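Read counts per gene of 16 organoid cultures were analyzed. The members, gene lists and named genes were chosen with earlier results of these data known. Per the labels and the paper, the authors trimmed reads with cutadapt, mapped them to GRCm38 with TopHat2 and ran HTSeq, and the deposited counts are whole numbers with no scaling. HTSeq drops reads with several alignments. The annotation release and strand setting are not given in the sources used here, and the kit is TruSeq RNA v2 in the labels but stranded total RNA in the paper. The table's 5 summary lines were left out.

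Symbols and positions came from GENCODE mouse release 21 (GRCm38), which matched 99.5% of 49585 genes, and promoters from RefSeq (GRCm38.p6). edgeR's filterByExpr kept 12559 genes, with 99.6% of the ΔIEC gene counts, and libraries were scaled by TMM. A quasi-likelihood fit (R 4.3.3, edgeR 4.0.16) held a mean for each of the 4 organoid lines and an IL-22 effect in each genotype, with 10 residual degrees of freedom. The difference between ΔIEC lines came from a fit of the 8 line and treatment means. All tests were two-sided with Benjamini-Hochberg adjustment across the 12559 genes and a threshold of 0.01, and the SE was taken from the fold change and its F statistic. A group with at most 3 counts in every culture was at the floor, and a change against it is a lower bound for 3 counts per library. Floors cover counting error only. The sources do not say whether cultures of a line were isolated separately, so p-values measure the spread between cultures, which may be technical.

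In simulated counts for this comparison (12559 genes), the fit called 50% of genes changed 1.5-fold, 78% of those changed 2-fold, 98% at 4-fold and 100% at 8-fold. For the difference between genotypes these shares were 38%, 66%, 90% and 100%. The simulated counts varied between cultures, with no difference in response between lines of a genotype, so shares with such differences were not tested. To check the pairing by line, each ΔIEC culture's deviation from the mean of its group was correlated over genes between treated and untreated cultures. The correlations were 0.056 to 0.321 in the same line and -0.352 to -0.078 in different lines. Deviations cancel out within a group, so the negative values follow from the positive ones. The line was a planned block and was kept. Named genes were the 12 with the largest change each way (at least 5 CPM in the higher group, no overlap, not at the floor, predicted genes passed over), the 5 with the highest bounds, the 10 with the smallest p-values each way, the 3 with the smallest p-values each way in each list, genes the study names for its sequencing or organoid qPCR, the 5 with the smallest p-values each way in each difference, and Atg16l1. Fewer were named in places, and some genes are not reported here. Other list members and genes whose promoters are shown were chosen after their values were seen.

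Alternatives were no line block, ΔIEC cultures only, RLE size factors, DESeq2 1.42.0, limma-voom (limma 3.58.1) with duplicateCorrelation, no filter, at least 10 counts in every culture, a threshold of 0.05, glmTreat at 1.5-fold, summed cultures, libraries thinned to 2135000 counts, and each culture and line left out. Those for the fl/fl response were chosen after seeing the data.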

Additional observations from a re-analysis of the deposited data

Results flagged for a closer look

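In 24 of 528 groups of 4 ΔIEC cultures (264 genes named here, untreated and treated), the highest or the lowest culture lay so far from the others that the gap, as a share of the group's range, passed the 95% limit of Dixon's test. Chance flags about 1 in 20 groups, and these were 4.55%. Treated replicate 1 was the culture that stood apart in 9 of them. It was the highest in Gm42418 (10726 CPM), Lars2 (4544 CPM), Edem1 (115.8 CPM) and Top2a (614.8 CPM), and also in Olfm4 (300.1 CPM), Psmd14 (207.4 CPM), Casp1 (94.8 CPM), Lig1 (87.9 CPM) and Fadd (45.0 CPM). Treated replicate 2 was the highest in Atg16l1 (5.96 CPM) and the lowest in Cytip (0 CPM), treated replicate 4 was the highest in Gkn3 (0.868 CPM, with the others at 0), and treated replicate 3 the lowest in Calr (919.9 CPM). Among untreated cultures, replicate 1 was the highest in Lrg1 and Tat (0.236 CPM in each, with the others at 0) and the lowest in Avil (3.30 CPM) and Gcg (0.236 CPM). Replicate 2 was the highest in Tax1bp1 (329.0 CPM), Pfkfb3 (137.6 CPM) and Lcn2 (0.492 CPM, with the others at 0). Replicate 3 was the highest in Zg16 (27.3 CPM), Reg3g (20.9 CPM) and Slc28a2 (18.1 CPM), and replicate 4 the lowest in Hnf4a (954.4 CPM). Results without single cultures are given beside the counts they change.

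In 11 named genes the response differed between the ΔIEC lines (second minus first, adjusted p under 0.01). The differences of the log2 fold changes were -2.23 in Anpep, -1.83 in Cyp2b10, -1.76 in Apoa1, -1.74 in Isx, -1.46 in Apoa4, -1.35 in Slc2a5, -1.34 in Fabp1, -1.22 in Rbp2, -1.14 in Pla2g5, -0.99 in Sis and 0.86 in Ndrg1. Each line had 2 cultures per treatment.

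In 21 named genes the response differed between ΔIEC and fl/fl organoids (ΔIEC minus fl/fl, adjusted p under 0.01). Higher values in ΔIEC organoids were 3.53 in Mptx2, 1.72 in Akr1c19, 1.36 in Rbp2, 1.18 in Pla2g2a, 1.18 in Sult6b2, 0.92 in Sord, 0.72 in Hmmr, 0.68 in Lypd8 and 0.57 in Ccnb1. Lower values were -1.90 in Fbp1, -1.12 in Id2, -1.08 in Adh1, -0.97 in Slc11a2, -0.94 in Adh6a, -0.90 in Gpx2, -0.81 in mt-Co1, -0.78 in Clca4b, -0.78 in Fcgbp, -0.74 in mt-Cytb, -0.65 in Axin2 and -0.43 in Cps1. Rbp2 differed in both comparisons. Without the line as a block, the difference passed the threshold in 2 tested genes in all.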

How the results depend on the processing

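Of 6230 values of single genes under an alternative, 5841 stayed on their side of the threshold, although 73 of these, in 31 genes that were not called, had the opposite sign. A further 342 kept the direction but no longer passed, 44 passed where they had not, and 3 of called genes changed sign. Leaving out some single culture ended the call of 24 genes and gave one to 10, and leaving out the first or the second line ended 24 and 36. With the line as a block, 1727 genes rose and 1471 fell. Without the replicate block, 1234 rose and 961 fell, 115 list members fell (173 with it), and the response differed between genotypes in 2 genes (56 with it). That last count was 5 with limma-voom, 11 after summing the cultures of each line, 180 with no filter on low counts and 189 at a threshold of 0.05. The difference between lines passed in 46 genes with no filter and 23 at 0.05 (14 otherwise). Against a fold change of 1.5 (glmTreat), 375 genes rose and 297 fell, 100 list members rose and 63 fell, 1 gene differed between genotypes, and 699 genes changed in fl/fl organoids (3837 otherwise). Leaving out each culture or line in turn gave 882 to 1721 genes that rose, 886 to 1457 that fell, 30 to 109 that differed between genotypes, 8 to 61 that differed between lines, 21 to 26 lists with a median above 0, 175 to 242 list members that rose and 132 to 178 that fell. With at least 10 counts in every culture, the median of the tuft cell list was 0.115 and that of the enterocyte transcription factors -0.0674. Leaving out single cultures and lines, medians ran from -0.14 (without treated replicate 2) to 0.15 (without the first line) in the tuft cell list and from -0.15 (without the second line) to 0.27 (without the first) in the enteroendocrine list. Without the first and the second line, the log2 fold change was 0.0999 and -1.95 in Bco1, -0.0095 and 1.10 in Pla2g5, and 0.84 and -0.0589 in Ndrg1. The cause was not tested in any of these. Depth limits small changes of low genes: with counts thinned to the smallest library, 1495 genes rose and 1225 fell.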

Other observations

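Other genes with large changes belonged to no list. Slfn2, a Schlafen gene linked to quiescence of immune cells, was at 1.18, 4.43, 2.81 and 2.91 CPM in the untreated and 99.2, 59.1, 88.2 and 105.0 CPM in the treated ΔIEC cultures (log2 fold change 4.90 ± 0.22, adjusted p = 2.85e-17). Tat, the tyrosine aminotransferase, had 1, 0, 0 and 0 counts untreated and 25, 44, 49 and 71 counts treated, a rise of at least 3.89 on the log2 scale. Among genes that reached the counting floor with IL-22, Gkn3, a gastrokine, had 27, 21, 10 and 23 counts untreated and 0, 0, 0 and 3 counts treated. Cubn, the receptor for intrinsic factor and vitamin B12, had 25, 20, 8 and 8 and 3, 1, 0 and 2 counts, and Vsir, an immune checkpoint receptor, 21, 27, 8 and 6 and 0, 2, 2 and 1 counts. Counted from the floor, their log2 fold changes were -2.71, -2.18 and -2.17 or lower. Cytip, a regulator of cell adhesion, had a log2 fold change of -3.75 ± 0.36, and Aldh1b1, a mitochondrial aldehyde dehydrogenase of crypt cells, one of -1.50 ± 0.07. By gene class, 48 of 541 tested antisense genes rose (8.87%) and 30 fell (5.55%), and 17 of 210 tested lincRNA genes rose and 17 fell (8.10% each), against 13.8% and 11.7% of all tested genes. Reads of antisense genes and of their partners cannot be told apart here.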
